A study of Mus musculus with 8 samples.

Results

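The 10 genes described here encode the heavy chains of mouse MHC class I molecules, 9 in number, and their shared light chain, beta-2-microglobulin (B2m). They were chosen by name as the classical genes H2-K1 and H2-D1, the non-classical genes H2-Q1, H2-Q4, H2-Q6, H2-Q7, H2-T22, H2-T23 and H2-M3, and B2m, and were matched to the Ensembl identifiers of 54532 deposited genes. All 10 were among the 14591 genes kept for testing. The 8 RNA-Seq libraries were made from BMDMs, macrophages that were grown out of mouse bone marrow, and formed 4 groups of 2. Wild-type (WT) BMDMs and Trex1-/- BMDMs (Trex1-KO) received vehicle (DMSO), and Trex1-KO BMDMs also received 1 of 2 small-molecule STING antagonists, H151 (500 nM) or SN-011, for 12 h. The marrow came from mice of 6 to 8 weeks and was cultured for 7 days in medium with L929 cell supernatant. A dose of SN-011 is absent from the labels, and the methods of the study list the same figure as for H151. The titles number the libraries of each group, and the treated titles repeat the untreated ones (ko1+h151 and ko1+SN011 beside ko1). The study calls the libraries independent experiments without saying whether numbers were shared between groups. The p-values thus measure the spread between these libraries only.

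MHC class I molecules sit on nearly all nucleated cells and show short peptides from inside the cell to T cells. The heavy chain holds the peptide and needs B2m to fold and reach the surface, and the classical chains present to cytotoxic T cells while the non-classical chains have narrower ligands and receptors. Class I genes are known targets of interferon signaling, through interferon-stimulated response elements and the transactivator NLRC5 in their promoters. TREX1 is a DNA exonuclease whose loss lets DNA accumulate in the cytosol, where cGAS senses it and signals through STING to interferon.

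Trex1 itself was listed at 0 counts in all 8 libraries, WT included, and 100% of its exonic bases lie within exons of other genes, so its counts could not check the genotype labels. Total counts per library ran from 11845470 to 17284863, and 1 count was worth between 0.0582 and 0.0849 counts-per-million (CPM, scaled by the trimmed mean of M-values, TMM). All 8 macrophage markers were detected, and their summed level was 30304 to 32363 CPM in WT against 30974 to 32027 CPM in Trex1-KO. The 4 B cell, 4 T cell and 4 NK cell markers each summed to under 1 CPM in every library. The 6 dendritic cell markers summed to at most 2.96 CPM, with Cd209a and Ccr7 at 0. The 4 erythroid markers summed to at most 1.91 CPM.

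Class I promoters are known to respond to NF-kappa-B and to interferon regulatory factors (IRFs), and the promoters are shown to give which members hold such letters beside the 9 that were called higher in Trex1-KO. RefSeq promoter windows (build GRCm38.p6, 250 bases before to 50 after the start) were matched for 9 members, and H2-Q1 had none. Each stretch of 30 bases below is read 5′ to 3′ on the gene's own strand. The stretch begins at the kappa-B match where there is one and is otherwise placed around the IRF match, and capitals mark every match to GGGNNTTCC (kappa-B), AANNGAAA (IRF core) or GAAANNGAA (IRF doublet) on either strand.
H2-K1 (chr17:34000429-34000458, minus strand): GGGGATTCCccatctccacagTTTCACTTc
H2-D1 (chr17:35262923-35262952, plus strand): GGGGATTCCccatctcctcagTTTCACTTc
H2-Q4 (chr17:35379444-35379473, plus strand): GGGATTTCCcatctccccagTTTCACTTct
H2-Q6 (chr17:35424677-35424706, plus strand): GGGGATTCCccatctccccagTTTCACTTc
H2-Q7 (chr17:35439022-35439051, plus strand): GGGGATTCCcatctccccagTTTCACTTct
H2-T22 (chr17:36042915-36042944, minus strand): aattggcttagTTTCACTTTCgaatcccca
H2-T23 (chr17:36032807-36032836, minus strand): gatcctactgcTTTCTCTTTCataaagaca
H2-M3 (chr17:37270122-37270151, plus strand): ttcctctgaggTTTCACTTctctgtaactc
B2m (chr2:122147539-122147568, plus strand): taagaacatGAAACTGAAAatgggaaagtc
In H2-K1, H2-D1, H2-Q4, H2-Q6 and H2-Q7 a kappa-B match was followed within 30 bases by an IRF core read from the other strand. The stretch ran from -111 to -82 relative to the start of H2-K1, from -171 to -142 for H2-D1, from -173 to -144 for H2-Q4, from -173 to -144 for H2-Q6 and from -133 to -104 for H2-Q7. H2-T22, H2-T23 and B2m had an IRF doublet and no match to GGGNNTTCC, and H2-M3 had an IRF core alone. That pattern has a fixed spacing and misses kappa-B sites of other lengths. Just after its IRF match B2m holds gggaaagtccc, which the pattern cannot match, so a missing match is not a missing site. The stretches of H2-D1, H2-Q4 and H2-T23 lie within exons that GENCODE annotates, of these or of overlapping genes.

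Over all 27025 genes with a window, 26.7% held an IRF core, 9.8% an IRF doublet and 6.6% a kappa-B match. Of the 9 members with a window, 9 held an IRF core, 3 an IRF doublet and 5 a kappa-B match. The heavy chains are related in sequence and the 5 kappa-B stretches are nearly alike, so these matches are not independent of each other. H2-Q1, the only member not called in Trex1-KO, had no window to compare. The IRF core overlaps the doublet and was searched after the sequences had been seen. Among further elements of the class I promoter, TGACGC (CRE-like) was found in 4 of 9 members (H2-K1, H2-D1, H2-Q4 and H2-M3) against 8.4% of all genes, and CCAAT in 9 of 9 against 41.1%. In H2-K1, H2-D1 and H2-M3 the TGACGC match lay before the start on the gene's own strand. In H2-Q4 it lay after the start, at 30 to 35, on the opposite strand, so it is not at the place seen in the others. A match is a description of letters and not a bound site. For H2-Q6, the member with the largest fitted rise in Trex1-KO, the whole 250 bases before the start (chr17:35424600-35424849, plus strand) place the pair of elements in context, with the same marks in capitals.
H2-Q6 upstream: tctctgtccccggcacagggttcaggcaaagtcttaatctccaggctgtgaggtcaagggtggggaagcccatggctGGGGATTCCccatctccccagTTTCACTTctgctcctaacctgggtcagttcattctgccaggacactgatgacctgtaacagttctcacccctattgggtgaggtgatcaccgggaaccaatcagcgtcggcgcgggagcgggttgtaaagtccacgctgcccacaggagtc

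In Trex1-KO BMDMs, 9 of the 10 members were higher than in WT in the quasi-likelihood test of edgeR (p adjusted after Benjamini-Hochberg over all tested genes and under 0.05, hereafter called), where 9.27% of all tested genes were called higher. The 9 called genes rose by 1.50-fold (H2-M3) to 7.39-fold (H2-Q6), and none was called lower. The median log2 fold change was 0.93 over the 10 members and -0.002 over all tested genes. With H151, 4 members were called lower than in Trex1-KO (H2-Q6, H2-Q7, H2-T22 and H2-T23), where 1.84% of all tested genes were called lower. With SN-011, 2 were called lower (H2-T22 and H2-T23), where 2.22% were called lower. H2-Q1 was called higher with SN-011 (0.11% of all tested genes were), but it passed the filter on low counts only through the SN-011 libraries and so had to differ. Both antagonists were compared with the same Trex1-KO libraries, so their changes are not independent of each other or of the change from WT. The sample numbers of the SN-011 libraries lie far from those of the other libraries, which are consecutive. Whether the SN-011 libraries were prepared or sequenced apart is not stated. Any such difference coincides with every SN-011 comparison, including the values of H2-Q1, and cannot be told apart from the antagonist. In bulk RNA, fewer cells of a type and less RNA per cell cannot be told apart.

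**Figure D1:**
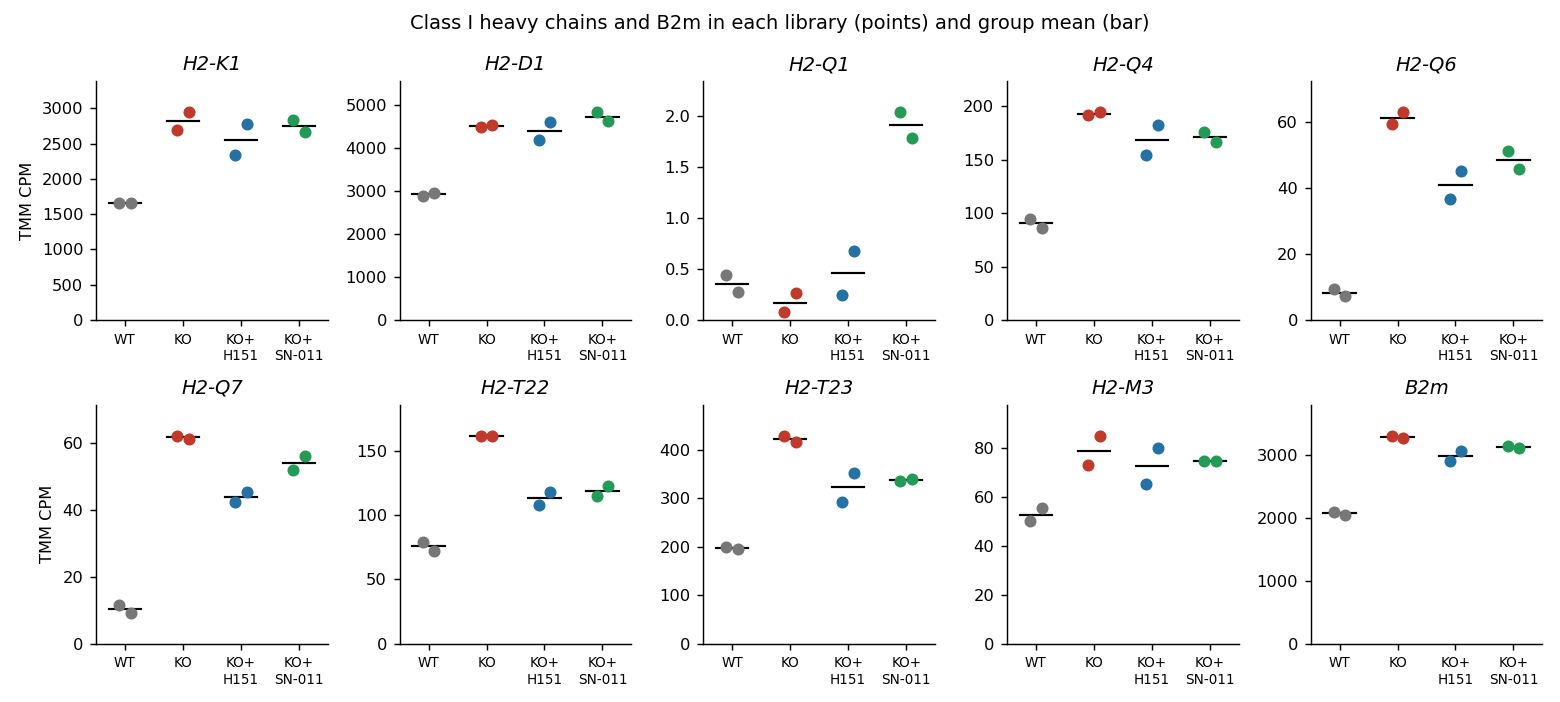
Level of each of the 10 genes (TMM-normalized CPM, each axis from 0) in the 2 libraries of each group (points) with the group mean (bar). The Trex1-KO libraries lie above both WT libraries for every gene except H2-Q1, and the libraries with an antagonist lie between WT and Trex1-KO for H2-Q4, H2-Q6, H2-Q7, H2-T22, H2-T23 and B2m.

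The classical heavy chains were higher in Trex1-KO and did not pass the test with either antagonist. H2-K1 (chr17:33996017-34000347, minus strand, GRCm38) encodes the K molecule and was measured at 1662 and 1659 CPM in WT, against 2697 and 2945 CPM in Trex1-KO. It was at 2341 and 2774 CPM with H151 and 2833 and 2659.6 CPM with SN-011. Every Trex1-KO library, treated or not, lay above both WT libraries, and the treated libraries overlapped the untreated ones. The rise from WT was 1.70-fold (log2 fold change 0.76 ± 0.07 (SE), adjusted p = 4.46e-06). Against Trex1-KO the log2 fold change was -0.14 with H151 (95% interval -0.29 to 0.01, adjusted p = 0.590) and -0.04 with SN-011 (-0.19 to 0.11, adjusted p = 0.881). The H151 value rested on 1 library, since without H151 replicate 2 the log2 fold change was -0.27 (adjusted p = 0.0152). H2-K1 was also called with H151 when every gene with 1 count was tested (adjusted p = 0.0324).

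H2-D1 (chr17:35262730-35267499, plus strand) encodes the D molecule and had the highest CPM of the 10 genes. It was at 2892 and 2962 CPM in WT against 4504 and 4556 CPM in Trex1-KO, 4201 and 4622 CPM with H151 and 4843 and 4638 CPM with SN-011. Both SN-011 libraries were above both untreated Trex1-KO libraries, while those with H151 lay on either side of them. H2-D1 rose 1.55-fold over WT (log2 fold change 0.63 ± 0.05 (SE), adjusted p = 1.06e-06). The log2 fold change against Trex1-KO was -0.04 with H151 (-0.15 to 0.07, adjusted p = 0.935) and 0.07 with SN-011 (-0.04 to 0.17, adjusted p = 0.653). The coding sequences of H2-K1 and H2-D1 are 91.5% identical over their alignment, yet no 150-base window of the H2-K1 transcript occurred in another gene and 1.8% of those of H2-D1 did (in H2-Q1), so few reads of this length would fit both.

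The Qa-region genes H2-Q6 and H2-Q7, of the group that encodes the Qa-2 antigen, had the largest folds of the members called in Trex1-KO. H2-Q6 (chr17:35424850-35430055, plus strand) was at 9.27 and 7.32 CPM in WT, and Trex1-KO had 59.4 and 63.0 CPM. It was at 36.6 and 45.3 CPM with H151 and 51.2 and 45.7 CPM with SN-011. The WT, Trex1-KO and treated libraries formed 3 sets that did not overlap. The rise was 7.39-fold (log2 fold change 2.89 ± 0.14 (SE), adjusted p = 6.52e-09). H151 lowered H2-Q6 (log2 fold change -0.58 ± 0.11 (SE), adjusted p = 0.0120), and with SN-011 it did not pass the test (log2 fold change -0.33 ± 0.11 (SE), adjusted p = 0.190). The H151 call was lost without Trex1-KO replicate 2 (adjusted p = 0.0838) or H151 replicate 1 (adjusted p = 0.0802). The SN-011 value passed when every gene with 1 count was tested (adjusted p = 0.0298) or the fit held only the groups compared (adjusted p = 0.0492).

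H2-Q7 (chr17:35439155-35443773, plus strand) lay close to H2-Q6 in CPM, at 11.6 and 9.29 in WT and 62.2 and 61.4 in Trex1-KO. With H151 it was at 42.5 and 45.5 CPM and with SN-011 at 52.0 and 56.3 CPM. Here too neither antagonist overlapped Trex1-KO or WT, and the H151 libraries were the lower of the treated ones. H2-Q7 rose 5.94-fold over WT (log2 fold change 2.57 ± 0.11 (SE), adjusted p = 2.96e-09) and fell with H151 (log2 fold change -0.49 ± 0.09 (SE), adjusted p = 0.00943), and with SN-011 it did not pass the test (log2 fold change -0.19 ± 0.09 (SE), adjusted p = 0.417). The H151 call was lost without Trex1-KO replicate 1 (adjusted p = 0.0527) or H151 replicate 1 (adjusted p = 0.0546).

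H2-Q6 and H2-Q7 share 95.4% of their aligned coding bases, the highest identity of any pair of members, and 13.9% of the 150-base windows of H2-Q6 and 11.6% of those of H2-Q7 occur in another gene (H2-Q7 for the former, H2-Q5 and H2-Q6 for the latter). How many read pairs could not be placed in 1 copy was not measured, so the split between the copies may be uncertain. With the counts of H2-Q5, H2-Q6 and H2-Q7 summed to 1 gene, the log2 fold change was 2.54 ± 0.09, adjusted p = 7.73e-10 for Trex1-KO against WT, -0.50 ± 0.08, adjusted p = 0.00310 for H151 against Trex1-KO and -0.26 ± 0.08, adjusted p = 0.151 for SN-011 against Trex1-KO.

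H2-Q4 (chr17:35379617-35385290, plus strand), a further Qa-region heavy chain, was at 94.7 and 85.9 CPM in WT against 191 and 194 CPM in Trex1-KO, 155 and 183 CPM with H151 and 176 and 167 CPM with SN-011. The treated libraries all lay below both untreated Trex1-KO libraries and above WT. Its rise over WT was 2.14-fold (log2 fold change 1.09 ± 0.08 (SE), adjusted p = 4.35e-07), and neither antagonist passed the test (H151: log2 fold change -0.19 ± 0.08 (SE), adjusted p = 0.420, SN-011: log2 fold change -0.17 ± 0.08 (SE), adjusted p = 0.417). Without H151 replicate 2 the H151 value was called, at -0.32 (adjusted p = 0.0418). Of its exonic bases, 19.1% lie in exons of Gm11131, and whether reads there were counted for either gene was not tested. Trex1, whose exonic bases all lie in exons of other genes, had 0 counts.

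H2-Q1 (chr17:35320405-35325099, plus strand) was close to the limit of detection outside the SN-011 libraries. It had 6 and 4 counts in WT, 1 and 4 in Trex1-KO, 3 and 10 with H151, and 35 and 21 with SN-011. The SN-011 libraries stood above the other 6. Because H2-Q1 passed the filter on low counts only through the SN-011 libraries, it had to differ there, and its call (log2 fold change 3.39 ± 0.61, adjusted p = 0.00732) is given as a description. The 56 counts with SN-011 against 5 in Trex1-KO gave a CPM ratio of 10.99 (95% counting interval 4.44 to 35.2), and against the 10 in WT a ratio of 5.48 (95% counting interval 2.77 to 12.0). The call against Trex1-KO was lost without Trex1-KO replicate 1 (adjusted p = 0.106) or SN-011 replicate 1 (adjusted p = 0.120). Since 4.6% of its 150-base windows also occur in H2-D1 or H2-Q2, its counts were set beside those of the much more abundant H2-D1. There were 4.20 and 3.85 H2-Q1 counts per 10000 H2-D1 counts with SN-011, against 1.53 and 0.915 in WT, 0.168 and 0.579 in Trex1-KO and 0.582 and 1.45 with H151.

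The T-region genes H2-T22 and H2-T23 were called in all 3 of the main comparisons, higher in Trex1-KO and lower with each antagonist. H2-T22 (chr17:36037128-36042747, minus strand), a ligand of some gamma-delta T cell receptors, was at 79.3 and 71.9 CPM in WT, against 161 and 161 CPM in Trex1-KO. It was at 108 and 118 CPM with H151 and 115 and 123 CPM with SN-011. Both antagonists brought it to a narrow range clear of both Trex1-KO and WT. It rose 2.13-fold over WT (log2 fold change 1.09 ± 0.07 (SE), adjusted p = 1.47e-07). It fell to 0.701 times its Trex1-KO level with H151 (log2 fold change -0.51 ± 0.07 (SE), adjusted p = 7.41e-04) and to 0.736 times with SN-011 (log2 fold change -0.44 ± 0.07 (SE), adjusted p = 0.00248). The H151 call held with any 1 library left out, and the SN-011 call was lost without SN-011 replicate 1 (adjusted p = 0.0847). Of its exonic bases, 29.4% lie within exons of A930015D03Rik, and 1.0% of its windows occur in H2-T10. With H2-T10 added, the log2 fold change was 1.08 ± 0.07, adjusted p = 1.14e-07 over WT, -0.49 ± 0.07, adjusted p = 8.64e-04 with H151 and -0.42 ± 0.07, adjusted p = 0.00267 with SN-011.

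H2-T23 (chr17:36029773-36032855, minus strand) encodes Qa-1, which shows leader peptides of other class I chains to an inhibitory receptor of NK cells. It was at 199.8 and 196 CPM in WT against 429 and 416 CPM in Trex1-KO, 293 and 353 CPM with H151 and 335 and 340.0 CPM with SN-011. The treated libraries lay between WT and Trex1-KO without overlap, and those with H151 were further apart than those with SN-011. The rise was 2.13-fold (log2 fold change 1.09 ± 0.07 (SE), adjusted p = 2.20e-07), the change with H151 -0.39 ± 0.07 (adjusted p = 0.0107) and with SN-011 -0.32 ± 0.07 (adjusted p = 0.0349), both on the log2 scale. The H151 call was lost without Trex1-KO replicate 1 (adjusted p = 0.0658), without H151 replicate 1 (adjusted p = 0.0600) and in a fit of only the groups compared (adjusted p = 0.0854). The SN-011 call was lost without either library of WT, Trex1-KO or SN-011 (adjusted p from 0.0592 without WT replicate 2 to 0.330 without SN-011 replicate 1) and when libraries were scaled by total counts alone (adjusted p = 0.0552).

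H2-M3 (chr17:37270220-37274484, plus strand) presents N-formylated peptides, such as those of bacteria and mitochondria, and had the smallest rise of the called members. It was at 50.1 and 55.5 CPM in WT against 73.0 and 85.0 CPM in Trex1-KO, 65.3 and 80.2 CPM with H151 and 74.9 and 74.7 CPM with SN-011. All Trex1-KO libraries were above WT, and the treated ones overlapped the untreated. The rise was 1.50-fold (log2 fold change 0.58 ± 0.10 (SE), adjusted p = 0.00115). The log2 fold change against Trex1-KO was -0.12 with H151 (-0.33 to 0.10, adjusted p = 0.856) and -0.08 with SN-011 (-0.29 to 0.13, adjusted p = 0.808).

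B2m (chr2:122147686-122153083, plus strand), the light chain of class I molecules, lies on another chromosome than the heavy chains, which span 3.28 Mb of chromosome 17 from H2-K1 to H2-M3. It was at 2105 and 2053 CPM in WT, against 3311 and 3279 CPM in Trex1-KO. It was at 2904 and 3076 CPM with H151 and 3152 and 3115 CPM with SN-011. All treated libraries lay below both untreated Trex1-KO libraries and above WT, by less with SN-011. B2m rose 1.58-fold over WT (log2 fold change 0.66 ± 0.05 (SE), adjusted p = 2.25e-07). Against Trex1-KO its log2 fold change was -0.14 with H151 (-0.24 to -0.04, adjusted p = 0.215) and -0.07 with SN-011 (-0.17 to 0.03, adjusted p = 0.566). The H151 value passed when every gene with 1 count was tested (adjusted p = 0.0254).

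**Figure D2:**
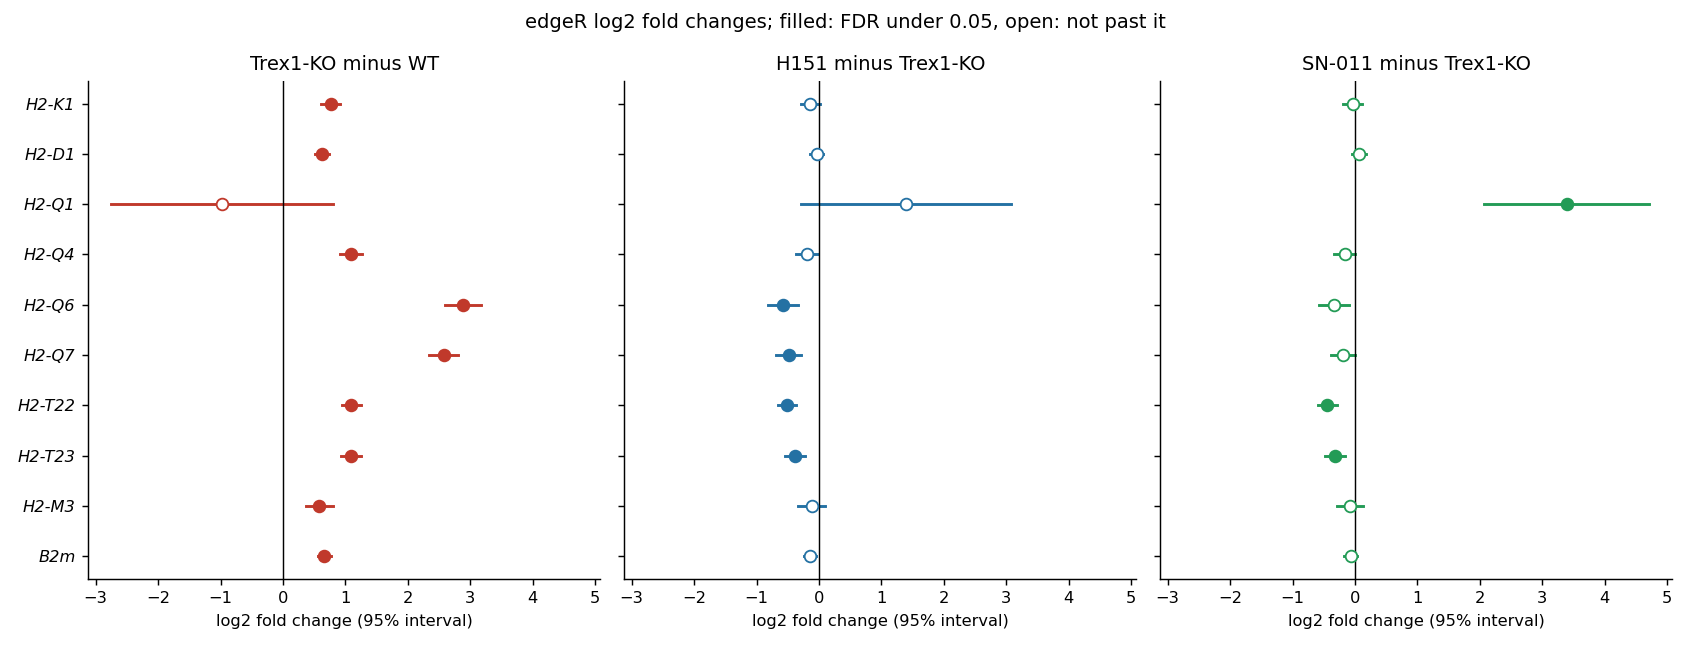
edgeR log2 fold change with its 95% interval for each member, for Trex1-KO minus WT (left), H151 minus Trex1-KO (middle) and SN-011 minus Trex1-KO (right), on 1 shared scale. Filled points passed an adjusted p of 0.05. On the left 9 points are filled and right of 0, in the middle H2-Q6, H2-Q7, H2-T22 and H2-T23 are filled and left of 0, and on the right H2-T22 and H2-T23 are filled and left of 0 and H2-Q1, from few counts, is filled and right of 0.

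Summed over the 9 heavy chains, the level was 4999 and 5047 CPM in WT against 8178 and 8482 CPM in Trex1-KO, 7243 and 8221 CPM with H151 and 8483 and 8105 CPM with SN-011. Untreated Trex1-KO stood above WT, and both treated groups overlapped it. With the other annotated H2 heavy chains that had a count added (H2-Bl not among them), the sum was 8410.0 and 8712 CPM in Trex1-KO, against 7367 and 8370.2 CPM with H151, which then did not overlap (ratio 0.919, exact permutation p = 0.333), and 8634 and 8263 CPM with SN-011, which did. For the 9 heavy chains the mean ratio was 1.66 for Trex1-KO over WT, and the exact two-sided permutation test gave p = 0.333, the smallest that 2 against 2 libraries allow. For H151 over Trex1-KO the ratio was 0.928 (exact permutation p = 0.667), and for SN-011 over Trex1-KO it was 0.996 (exact permutation p = 1). H2-K1 and H2-D1 made up 91.1 and 91.6% of the summed CPM in WT, against 88.1 and 88.4% in Trex1-KO, so the sum follows these 2 genes. Their share was 90.3 and 90.0% with H151 and 90.5 and 90.0% with SN-011. The heavy chains took 0.517 and 0.522% of all counts in WT and 0.800 and 0.824% in Trex1-KO. The summed heavy-chain CPM per B2m CPM ran from 2.37 to 2.69 over the 8 libraries.

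Per kilobase of each gene's coding transcript, a scale on which levels of different genes can be compared, B2m was the most abundant in every group. It was at 2417 ± 42.6 CPM per kb in WT and 3831 ± 26.1 in Trex1-KO (SD, n = 2). H2-D1 followed at 1392 ± 23.5 and 2155 ± 17.4, and H2-K1 at 1025 ± 1.37 and 1743 ± 108. H2-T23, at 134 ± 1.81 in WT and 287 ± 6.17 in Trex1-KO, was the most abundant non-classical chain. H2-Q4 and H2-T22 came next in that order in every group, at 50.4 and 44.6 CPM per kb in WT. The order of H2-M3, H2-Q6 and H2-Q7 was not the same in all groups on this scale. In WT H2-M3 stood at 36.7 CPM per kb above H2-Q6 at 8.46 and H2-Q7 at 6.96, while in Trex1-KO H2-Q6 stood at 62.4 above H2-M3 at 55.0 and H2-Q7 at 41.3. The libraries of neighbors in this order overlapped for H2-Q6 and H2-Q7 in WT and for H2-M3 and H2-Q6 with either antagonist, and did not overlap elsewhere. H2-Q1 was last in every group. This order depends on the length used, since the H2-Q6 transcript has 981 bases while the exons of all H2-Q6 transcripts cover 2085 bases. Per kb of exonic bases outside exons of other genes, a scale chosen after the data were seen, H2-Q6 stood at 29.3 in Trex1-KO, below H2-M3 at 55.0, and it was below H2-M3 without overlap in every group. That scale takes no reads from the overlapped bases of H2-Q4 and H2-T22, so the place of H2-Q4 beside H2-M3 is not given on it. H2-T22 stood below H2-M3 on it without overlap in WT (31.4 against 36.7) and with SN-011 (49.2 against 52.0). With H151 the 2 genes overlapped (46.8 against 50.6), and in Trex1-KO H2-T22 stood above H2-M3 (66.9 against 55.0). The order among B2m, H2-D1, H2-K1, H2-T23 and H2-Q4 was the same on both scales in all 4 groups.

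**Figure D3:**
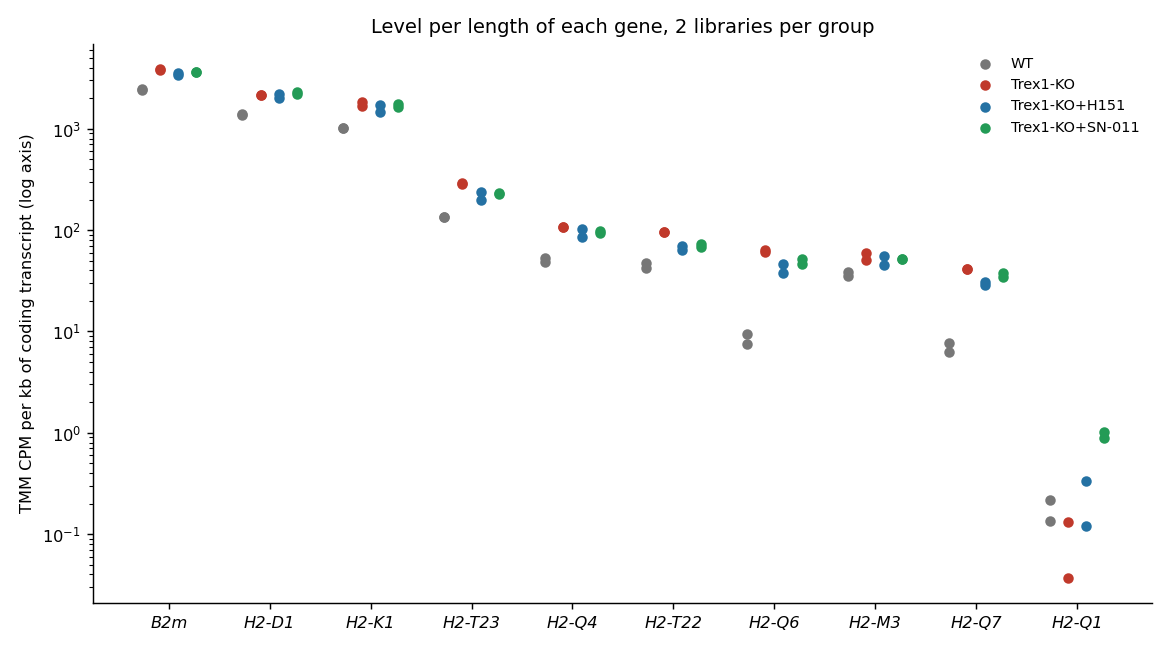
Level of each gene per kilobase of its coding transcript (TMM CPM per kb, log axis) in the 2 libraries of each group, ordered by the Trex1-KO mean (an order that changes for H2-Q6 with the length used). B2m, H2-D1 and H2-K1 are the highest in every library, the 6 non-classical genes from H2-T23 to H2-Q7 lie below them, and H2-Q1 lies lowest, near or below 1.

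Compared directly, no member was called between SN-011 and H151 by the edgeR quasi-likelihood test, where 0.0% of all tested genes were called higher with SN-011 and 0.158% lower. At an unadjusted p under 0.05, 2 of the 10 members passed (H2-Q1 and H2-Q7, both higher with SN-011), as did 8.91% of all tested genes. The edgeR exact test and a fit of every gene with 1 count each called H2-Q1 (adjusted p = 0.0153 and 0.0169), and DESeq2 called none and gave H2-Q1 no adjusted p. Because the SN-011 libraries alone brought H2-Q1 past the filter on low counts, its values here are a description and no support. The log2 difference, SN-011 minus H151, was 0.29 for H2-Q7 (95% interval 0.10 to 0.49, adjusted p = 0.407) and 0.24 for H2-Q6 (-0.0012 to 0.49, adjusted p = 0.559). It was 0.07 for H2-T22 (-0.08 to 0.22), 0.06 for H2-T23 (-0.10 to 0.22) and 0.07 for B2m (-0.03 to 0.17). The difference between 4 members lower with H151 and 2 with SN-011 was thus not itself called, and the intervals leave room for a level with SN-011 up to 1.40-fold that with H151 for H2-Q6, 1.41-fold for H2-Q7 and 1.17-fold for H2-T22 and H2-T23.

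With an antagonist present, nearly all members were still called above WT. With H151, 9 of 10 were called higher than in WT, where 6.79% of all tested genes were, and with SN-011 the same 9, where 6.18% were. H2-Q1 was called with SN-011 too, but had to differ there, since it entered the test only through the SN-011 libraries. The median log2 fold change over WT was 0.61 with H151 and 0.75 with SN-011, beside 0.93 without antagonist. H2-Q6 was still 4.96-fold and 5.87-fold above WT with H151 and SN-011, and H2-T22 1.49-fold and 1.57-fold. These comparisons share the WT libraries. The H2-M3 call was lost for both antagonists without WT replicate 1 (adjusted p = 0.123 with H151 and 0.0829 with SN-011) and for H151 without its replicate 2 (adjusted p = 0.0773). The H2-Q1 call with SN-011 was lost without WT replicate 1, WT replicate 2 or SN-011 replicate 1 (adjusted p = 0.0574, 0.114 and 0.0883).

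Markers of other cell types also differed between Trex1-KO and WT, where 9.27% of all tested genes were called higher and 7.11% lower. The 5 stromal markers summed to 2069 to 2265 CPM in WT, against 848 to 1045 CPM in Trex1-KO, with 4 of 5 called lower. The 6 granulocyte markers summed to 7.39 to 7.58 CPM in WT, against 46.6 to 66.1 CPM in Trex1-KO, with 3 of 3 tested called higher. The 3 endothelial markers summed to 17.2 to 17.5 CPM and 34.1 to 42.3 CPM, with 3 of 3 called higher. Of the 2 dendritic cell markers tested, Xcr1, a chemokine receptor with few counts, was called higher in Trex1-KO at 1.10 ± 0.154 CPM, against 0.144 ± 0.108 CPM in WT (2.88 ± 0.68, adjusted p = 0.00965), and Zbtb46 was not (-1.32 ± 0.50, adjusted p = 0.0951). At its WT level Xcr1 could not pass the filter on low counts, so only Trex1-KO libraries, treated or not, brought it into the test. Its call is thus a description. The 6 dendritic cell markers summed to 1.49 to 2.36 CPM in WT against 1.71 to 1.89 CPM in Trex1-KO. Of the 8 macrophage markers, 3 were called higher in Trex1-KO, namely Fcgr1, a receptor for IgG (1.14 ± 0.08, adjusted p = 2.66e-07), the lysosomal glycoprotein Cd68 (0.44 ± 0.06, adjusted p = 2.08e-04) and Adgre1, the F4/80 antigen (0.19 ± 0.05, adjusted p = 0.0249), and 1, Fcgr1, was called lower with each antagonist (-0.50 ± 0.08, adjusted p = 0.00256 with H151 and -0.49 ± 0.08, adjusted p = 0.00289 with SN-011). With H151 the stromal sum was 1089.6 to 1199.6 CPM and with SN-011 919.7 to 1105 CPM. The granulocyte sum was 59.96 to 61.6 CPM and 60.04 to 72.4 CPM, and the endothelial sum 37.6 to 44.4 CPM and 35.7 to 36.7 CPM, in the same order. The part of these cells in the class I values was not tested.

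A list of other heavy chains of the H2 complex held 30 symbols, of which 20 were in the annotation, 12 had a count and 5 were tested. It did not hold the pseudogenes H2-T-ps and H2-M6-ps, which also had counts. Of these 5, 3 were called higher in Trex1-KO (H2-Q5, H2-T10 and H2-T24), 2 lower with H151 and 1 lower with SN-011, and their median log2 fold change was 0.95 over WT. Among all tested genes, 9.27% were called higher in Trex1-KO, 1.84% lower with H151 and 2.22% lower with SN-011. H2-T24, another T-region heavy chain, was called with both antagonists. Its counts were 454 and 444 in WT, 1584 and 1737 in Trex1-KO, 518 and 888 with H151 and 939 and 724 with SN-011. Its log2 fold change was 1.88 ± 0.13, adjusted p = 1.89e-07 over WT, -1.19 ± 0.12, adjusted p = 6.03e-05 with H151 and -1.02 ± 0.12, adjusted p = 2.44e-04 with SN-011. The pseudogene H2-K2 was not called in Trex1-KO (0.20 ± 0.07, adjusted p = 0.0858) and was called lower with H151 (-0.44 ± 0.07, adjusted p = 0.00375). H2-Q5, a polymorphic pseudogene next to H2-Q6, rose with its neighbors (1.98 ± 0.14, adjusted p = 2.63e-07), and so did H2-T10, a close relative of H2-T22 (0.95 ± 0.16, adjusted p = 8.17e-04).

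The genes that cut, transport and load class I peptides mostly rose in Trex1-KO. Of 13 listed and tested, 10 were called higher in Trex1-KO and none lower (median log2 fold change 0.44), where 9.27% of all tested genes were called higher. With H151 2 were called lower (median -0.26), where 1.84% of all tested genes were. The same number were called lower with SN-011 (median -0.24), where 2.22% of all tested genes were. Tap1, a subunit of the peptide transporter, went from 87.1 ± 7.63 to 205 ± 12.3 CPM (SD, n = 2) in Trex1-KO (log2 fold change 1.23 ± 0.07, adjusted p = 5.72e-08). Tap1 was at 132 ± 4.40 CPM with H151 (-0.63 ± 0.07, adjusted p = 1.45e-04) and 138 ± 2.68 CPM with SN-011 (-0.57 ± 0.07, adjusted p = 3.80e-04). Tapbp (tapasin, which bridges transporter and heavy chain) was called in the same directions, from 279 ± 13.1 to 461 ± 19.8 CPM in Trex1-KO (0.73 ± 0.06, adjusted p = 1.25e-06), with -0.40 ± 0.06, adjusted p = 0.00158 for H151 and -0.45 ± 0.06, adjusted p = 5.82e-04 for SN-011. These were the 2 genes called with both antagonists.

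Among the immunoproteasome subunits, Psmb9 (0.76 ± 0.09, adjusted p = 6.52e-05) and Psmb10 (0.41 ± 0.10, adjusted p = 0.00839) were called higher in Trex1-KO. Psmb8 was at 73.1 ± 5.16 CPM in WT, against 98.9 ± 15.1 CPM in Trex1-KO and did not pass the test (0.44 ± 0.16, adjusted p = 0.0832), nor did the chaperones Canx (0.07 ± 0.05, adjusted p = 0.443) and Pdia3 (0.17 ± 0.06, adjusted p = 0.0669). Psmb8 was at 82.3 ± 26.9 CPM with H151 (-0.26 ± 0.16, adjusted p = 0.730) and 99.0 ± 3.33 CPM with SN-011 (0.00 ± 0.16, adjusted p = 0.999).

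Of 17 transcription factors known to act on class I promoters, 7 were called higher and 1 (Rfxap) lower in Trex1-KO, with a median log2 fold change of 0.17. With H151 6 were called lower and with SN-011 6, and none higher. The shares of all tested genes were 9.27% higher and 7.11% lower in Trex1-KO, 1.84% lower with H151 and 2.22% lower with SN-011. Nlrc5, the class I transactivator, was at 59.9 ± 2.04 CPM in WT, against 165 ± 4.22 CPM in Trex1-KO (1.46 ± 0.06, adjusted p = 3.75e-09). It was at 117 ± 3.29 CPM with H151 (-0.49 ± 0.06, adjusted p = 3.05e-04) and 109 ± 2.17 CPM with SN-011 (-0.60 ± 0.06, adjusted p = 6.77e-05). Of the RFX subunits that hold NLRC5 at the promoter, none rose in Trex1-KO. Rfx5 was at 17.9 ± 1.89 CPM in WT, against 18.1 ± 0.372 CPM in Trex1-KO (0.02 ± 0.12, adjusted p = 0.952), Rfxank gave -0.04 ± 0.15, adjusted p = 0.911, and Rfxap fell from 22.04 ± 1.71 to 14.9 ± 0.0742 CPM (-0.56 ± 0.13, adjusted p = 0.00633). None of the 3 was called with an antagonist. Stat2, which carries signals from the type I interferon receptor, was at 113 ± 6.01 CPM in WT, against 336 ± 20.2 CPM in Trex1-KO (1.57 ± 0.07, adjusted p = 3.24e-09). It was at 162 ± 4.62 CPM with H151 (-1.05 ± 0.06, adjusted p = 6.33e-06) and 171 ± 3.45 CPM with SN-011 (-0.98 ± 0.06, adjusted p = 1.04e-05). Irf1, an activator of class I promoters, rose in Trex1-KO (0.64 ± 0.09, adjusted p = 1.22e-04) and was called lower with H151 (-0.57 ± 0.09, adjusted p = 0.00167) and SN-011 (-0.62 ± 0.09, adjusted p = 9.02e-04). Relb, an NF-kappa-B subunit, was called in the same directions (0.34 ± 0.09, adjusted p = 0.0231 in Trex1-KO, -0.45 ± 0.09, adjusted p = 0.0226 with H151 and -0.58 ± 0.10, adjusted p = 0.00340 with SN-011). Irf2 and Irf9 also rose in Trex1-KO, and Irf9 was called lower with H151 (-0.41 ± 0.07, adjusted p = 0.00266) and Irf2 with SN-011 (-0.25 ± 0.06, adjusted p = 0.0475).

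**Figure D4:**
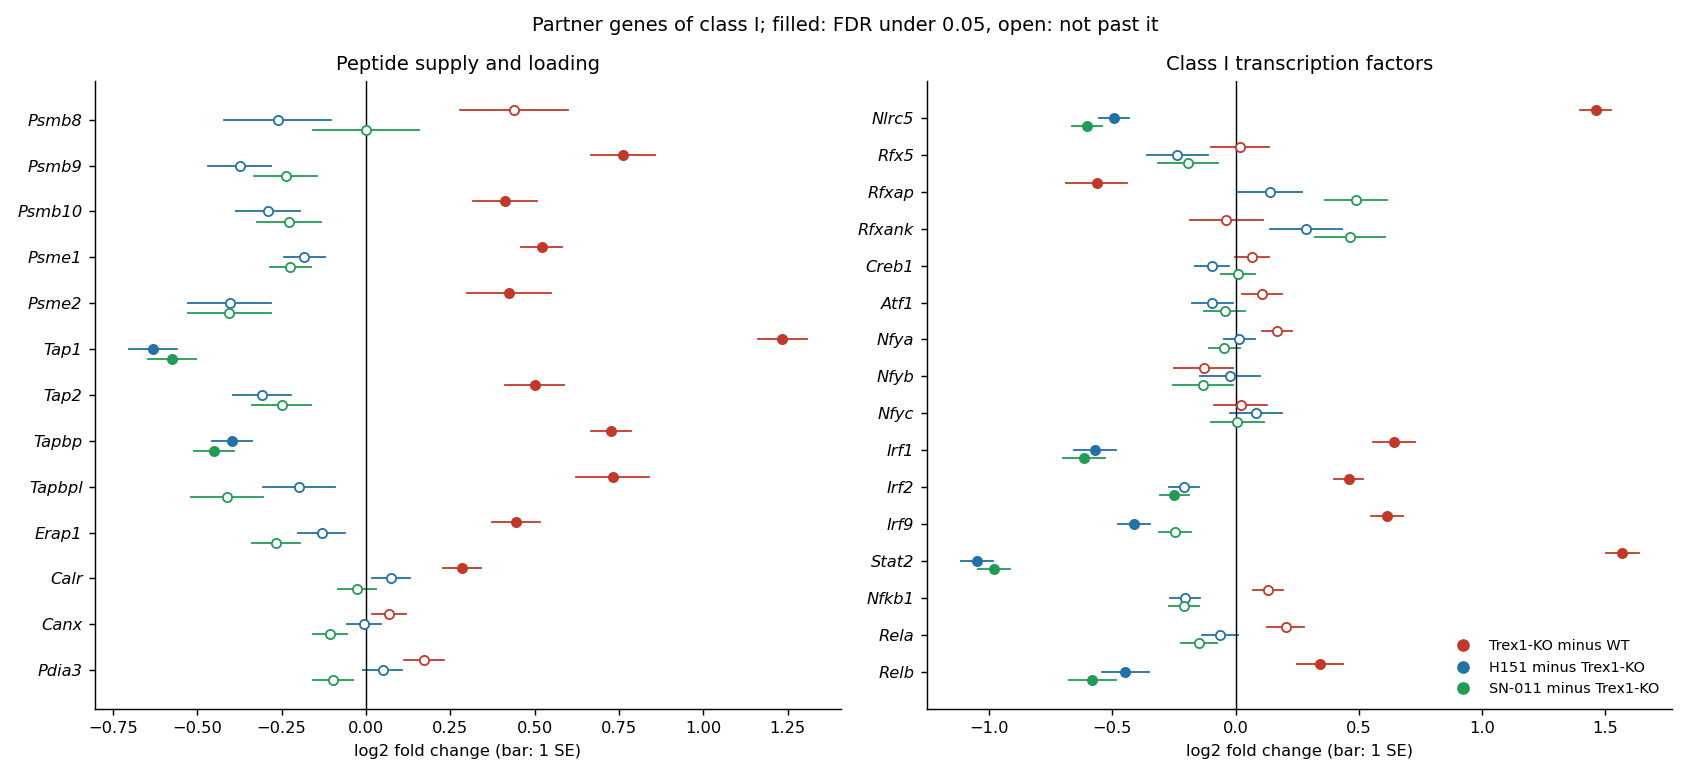
edgeR log2 fold change (bar, 1 SE) of the genes of peptide supply and loading (left) and of class I transcription factors (right) for Trex1-KO minus WT, H151 minus Trex1-KO and SN-011 minus Trex1-KO. Filled points passed an adjusted p of 0.05, and 1 factor of the list is not drawn. Tap1, Tapbp, Nlrc5, Irf1, Stat2 and Relb are filled in all 3 comparisons, right of 0 in Trex1-KO and left of 0 with each antagonist.

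Candidate myeloid receptors for class I or class I-like molecules were listed at 9 symbols, of which 4 were annotated and tested. Whether each of these binds class I was not tested, so the list is not one of established class I receptors. All 4 were called higher in Trex1-KO, 1 was called lower with H151 and 2 with SN-011. The shares of all tested genes were 9.27%, 1.84% and 2.22% in the same order. Pirb, an inhibitory receptor for class I, was at 415 ± 5.86 CPM in WT, against 682 ± 14.3 CPM in Trex1-KO (0.72 ± 0.06, adjusted p = 7.22e-07), and was called lower with H151 (-0.24 ± 0.06, adjusted p = 0.0421) and SN-011 (-0.29 ± 0.06, adjusted p = 0.00954). Lilrb4a was called higher in Trex1-KO (0.60 ± 0.06, adjusted p = 8.83e-06) and lower with SN-011 (-0.25 ± 0.06, adjusted p = 0.0423). Of 9 tested class I-like genes outside the H2 complex, none was called higher and 2 were called lower in Trex1-KO, where 7.11% of all tested genes were called lower. These were Fcgrt, the neonatal Fc receptor (-0.34 ± 0.07, adjusted p = 0.00316), and Cd1d1, which presents lipids (-0.63 ± 0.17, adjusted p = 0.0233). None of the 9 was called with an antagonist.

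The genes whose pattern over the 8 libraries was nearest to that of B2m, by the root-mean-square difference of log2 CPM centered on each gene's mean among 5631 tested genes of at least moderate level, were Abcg1 (0.0416), Myo1e (0.0471), Gm13456 (0.0486), Hpse (0.0520) and Gla (0.0534). B2m and the summed heavy chains differed by 0.0594 on the same measure. Nearest to the summed heavy chains were Gm13456 (0.0525), Capg (0.0605), Abcg1 (0.0706), Cd200r4 (0.0776) and Myo1e (0.0784). These are descriptions over 8 libraries that share groups. Of the members, H2-D1, H2-Q4, H2-T22 and H2-T23 belong to the gene list that the study named M7core, which was built in part on BMDMs of Trex1-/- mice and is not independent evidence.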

How the data were processed

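RNA-Seq of 8 mouse BMDM libraries was used, 2 each of WT, Trex1-KO, Trex1-KO with H151 and Trex1-KO with SN-011. Before deposit, the authors trimmed read pairs (Trimmomatic), aligned them (hisat2, default options) and used featureCounts on pairs that mapped uniquely. The submitters' processing notes also list HTSeq and the build mm10. Versions, annotation release and strand setting are not given in the sources used here, and labels and methods name different HiSeq instruments. The deposited values are raw counts per Ensembl gene, with no normalization. Names, exons and positions came from GENCODE vM21 (GRCm38), and promoter windows from RefSeq (GRCm38.p6).

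Counts were fitted in edgeR 4.0.16 (R 4.3.3) with TMM factors (0.973 to 1.04) and filterByExpr (minimum count 10, minimum total 15), with all 8 libraries in 1 quasi-likelihood fit and 1 mean per group. Each contrast was tested two-sided with Benjamini-Hochberg adjustment over 14591 genes and a threshold of 0.05. Each SE is approximate and equals the size of the log2 fold change divided by the root of its F statistic. The common biological coefficient of variation was 0.0656. Tests were checked on simulated counts. Sums of CPM were compared by exact permutation (scipy 1.17.1). Counting intervals are exact at 95%, and they and the floor of 3 counts reflect counting error alone, because without molecular identifiers PCR copies count as separate reads.

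The members and lists were chosen with earlier results of these data known. All 10 members were named, with up to 4 genes per list taken by role, Nlrc5, Tap1, Psmb8 and Tapbp always, and the 5 genes nearest in pattern with a mean log2 CPM of at least 5. Further list genes were named where the count they make up is 5 or fewer, or, as H2-T24, H2-K2, Rfx5, Rfxank, Irf1, Irf2, Irf9, Stat2 and Relb, after their values had been seen. The values of 1 listed transcription factor and 1 listed marker, which stay in the counts of their lists, are not reported here. Alternatives were total-count and RLE scaling, filters at 1 and at 50 counts, DESeq2 1.42.0, the edgeR exact test, a replicate block, fits of only the groups compared, and leaving out each library. Summing near-identical copies, leaving out H2-Q1 and levels per exonic base were added after the data were seen.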

Additional observations from a re-analysis of the deposited data

How the results depend on the processing

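Of the single-gene log2 fold changes recomputed under the alternatives, 923 kept their direction and their side of the threshold, 23 lost a call, 8 gained one and 11 changed sign, none of them a called value. The 9 calls of Trex1-KO against WT were made in every fit (also without H2-Q1). Leaving out 1 library in turn gave 9 called members in each fit for Trex1-KO against WT, 1 to 6 for H151 against Trex1-KO (1 without H151 replicate 1, 2 without Trex1-KO replicate 1), 0 to 3 for SN-011 against Trex1-KO (0 without SN-011 replicate 1, 1 without Trex1-KO replicate 1), 8 to 9 for H151 against WT and 8 to 10 for SN-011 against WT. For SN-011 against H151 it gave 0, and the edgeR exact test and the filter at 1 count gave 1 (H2-Q1).

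The median log2 fold change of the members ran without 1 library from 0.88 to 0.94 for Trex1-KO against WT, -0.30 to -0.087 for H151 against Trex1-KO, -0.18 to -0.10 for SN-011 against Trex1-KO, 0.020 to 0.20 for SN-011 against H151, 0.51 to 0.77 for H151 against WT and 0.73 to 0.76 for SN-011 against WT. For Trex1-KO against WT it was 0.84 with total counts only, 1.09 with the filter at 50 counts, 1.10 in the fit of only the groups compared and 1.09 without H2-Q1 (the last 3 hold no H2-Q1). Without 1 library, the summed heavy-chain ratio ran from 1.63 to 1.67 for Trex1-KO against WT, 0.869 to 0.988 for H151 and 0.971 to 1.02 for SN-011 against Trex1-KO. With total counts only it was 1.56 for Trex1-KO against WT and 0.944 for H151 against Trex1-KO. The SN-011 ratio changed sides of 1, to 1.02 with total counts only, 1.01 without Trex1-KO replicate 2 and 1.02 without SN-011 replicate 2.

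The log2 fold changes that changed sign were all uncalled, and each changed sign only when 1 library was left out. Over those fits, H151 against Trex1-KO ran from -0.11 to 0.031 for H2-D1 and from -0.28 to 0.021 for H2-M3 (above 0 without H151 replicate 1), and SN-011 against Trex1-KO from -0.098 to 0.026 for H2-K1 and from -0.18 to 0.034 for H2-M3 (above 0 without Trex1-KO replicate 2, and for H2-K1 also, at 0.0095, without SN-011 replicate 2). SN-011 against H151 ran from -0.012 to 0.23 for H2-K1, from -0.087 to 0.15 for H2-Q4, from -0.060 to 0.20 for H2-T23 and from -0.099 to 0.20 for H2-M3 (below 0 without H151 replicate 1, and for H2-Q4 also without SN-011 replicate 1), and H151 against WT from -0.53 to 0.90 for H2-Q1 (below 0 without H151 replicate 2). The causes were not tested.

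With the replicate number as a block, 9, 4 and 3 members were called for Trex1-KO against WT, H151 against Trex1-KO and SN-011 against Trex1-KO, and 0 for SN-011 against H151, and no call of a member changed. The 3 were H2-T22 and H2-T23, lower, and H2-Q1, higher. Counts of calls with SN-011, here and above, take both directions and can include H2-Q1, which had to differ in those libraries. Same-numbered libraries correlated in their deviations from the group means at 0.194 for Trex1-KO and H151 and between -0.0163 and 0.0609 for the other pairs of groups, so the numbers were not taken to pair the libraries. DESeq2 gave H2-Q1 no adjusted p in 4 contrasts, which were not counted as lost calls. With 2 libraries per group, every antagonist call other than H2-T22 with H151 was lost when some 1 library was left out, so these calls are uncertain. H2-Q1 also had few counts. Why calls were lost was not tested.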
